A study of Mus musculus with 12 samples.

Results

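The 42 cell cycle and mitosis genes described here were picked by symbol, and all 42 were found among the 35275 genes of the deposited table. All 42 are annotated as protein-coding. They were sorted by role into proliferation markers (3 genes), G1 entry and its brake (6), replication licensing and DNA synthesis (12), mitotic cyclins and kinases (8), the spindle checkpoint and the anaphase-promoting complex, APC/C (4), and spindle, kinetochore and cytokinesis genes (9). The last 3 groups are called the 21 mitosis members below.

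The samples, labelled as mouse liver, were sequenced in 4 groups of 3 libraries, and the series design calls the 3 of a group biological replicates. The groups were Hnf4a liver knockout on a high fat diet (KO HFD), the same knockout on vivarium chow (KO chow), wild type on the high fat diet (WT HFD) and wild type on vivarium chow (WT chow). No source used here gives the age, the length of feeding or the means by which Hnf4a was deleted. Values are FPKM, fragments that the authors divided by gene length and by library depth, and depth was 15705196 to 20311766 reads on genes per library.

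A cell leaves rest when D cyclins with their kinases release E2F factors from the retinoblastoma protein, and E2F factors then switch on the genes that license and copy DNA. Genes for mitosis peak later and are held down in resting cells by the DREAM complex, which binds the cell cycle genes homology region (CHR), and are driven in G2 by B-MYB, FOXM1 and the CCAAT-binding factor NF-Y. Most adult hepatocytes rest but re-enter the cycle after injury, and loss of HNF4A, a nuclear receptor of hepatocytes, has been linked to hepatocyte proliferation in mice.

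The promoters of mitosis genes are shown first because they share letters that the choice of genes did not use. Each line holds the 200 bases before the RefSeq start on GRCm38.p6, 5′ to 3′ on the gene's strand. Cdc20 (chr4:118437344-118437543, minus strand) and Ube2c (chr2:164769729-164769928, plus) encode an activator and the ubiquitin-conjugating enzyme of the APC/C, Ccnb2 (chr9:70421555-70421754, minus) encodes a mitotic cyclin, and Top2a (chr11:99024190-99024389, minus) encodes the topoisomerase that untangles chromosomes. Capitals mark the CHR and the CCAAT box, each searched on both strands. The CHR was searched as the letters TTTGAA, which on the other strand read as their reverse complement. Its second form was TTCGAA, which is its own reverse complement and was then counted on each strand. Matches after the start are not printed, among them a further CHR match of Ccnb2 at base 5 after the start.
Cdc20: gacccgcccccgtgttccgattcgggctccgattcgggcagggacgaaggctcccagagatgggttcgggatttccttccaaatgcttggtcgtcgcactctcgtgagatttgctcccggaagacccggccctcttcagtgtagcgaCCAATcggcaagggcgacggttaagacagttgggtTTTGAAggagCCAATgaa
Ube2c: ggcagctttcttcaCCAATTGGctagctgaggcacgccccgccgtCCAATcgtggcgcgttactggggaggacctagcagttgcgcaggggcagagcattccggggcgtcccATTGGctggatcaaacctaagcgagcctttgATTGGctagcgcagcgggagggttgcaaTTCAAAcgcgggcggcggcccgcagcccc
Ccnb2: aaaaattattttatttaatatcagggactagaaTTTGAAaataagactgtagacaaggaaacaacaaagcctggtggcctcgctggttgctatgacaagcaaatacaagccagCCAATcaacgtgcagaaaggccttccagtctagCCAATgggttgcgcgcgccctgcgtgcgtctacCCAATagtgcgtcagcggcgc
Top2a: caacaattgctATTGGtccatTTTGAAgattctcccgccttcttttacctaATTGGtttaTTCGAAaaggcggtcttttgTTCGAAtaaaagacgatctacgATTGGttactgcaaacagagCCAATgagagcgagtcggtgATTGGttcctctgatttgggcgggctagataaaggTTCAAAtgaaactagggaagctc

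The promoters of replication genes are shown for contrast. Mcm6 (chr1:128359706-128359905, minus) and Mcm5 (chr8:75109309-75109508, plus) encode subunits of the MCM helicase that is loaded at replication origins. Capitals mark the E2F site (TTTCCCGC, TTTCGCGC, TTTGCCGC or TTTGGCGC, on either strand) and the CCAAT box. Where E2F matches on both strands overlap, they form 1 run of capitals.
Mcm6: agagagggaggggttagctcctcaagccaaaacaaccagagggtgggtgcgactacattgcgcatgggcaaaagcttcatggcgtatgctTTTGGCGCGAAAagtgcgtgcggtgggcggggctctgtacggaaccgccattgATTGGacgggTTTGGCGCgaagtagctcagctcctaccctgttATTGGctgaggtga
Mcm5: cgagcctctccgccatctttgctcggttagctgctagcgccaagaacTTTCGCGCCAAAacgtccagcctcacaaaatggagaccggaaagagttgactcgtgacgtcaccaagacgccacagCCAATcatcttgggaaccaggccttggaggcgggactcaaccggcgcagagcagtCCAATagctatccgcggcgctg

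The promoter of Cdkn1a (chr17:29090779-29090978, plus), which encodes the cyclin-dependent kinase inhibitor p21 and is a textbook target of p53, is shown because the gene, like Ccnd2 and Cdc45, was highest in WT chow 3. Capitals mark a p53 element, a pair of 10-base decamers with no spacer and at most 1 mismatch in its 20 bases. This motif was added after the Cdkn1a sequence had been read, and the element holds 1 mismatch and lies 31 bases before the start.
Cdkn1a: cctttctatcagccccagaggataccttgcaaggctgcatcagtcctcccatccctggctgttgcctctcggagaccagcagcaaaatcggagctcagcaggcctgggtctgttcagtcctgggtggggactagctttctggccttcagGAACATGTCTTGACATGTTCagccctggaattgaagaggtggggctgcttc

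Over windows of 300 bases (250 before the start and 50 after), the RefSeq table held 32 of the 42 members. It held no entry for Ccna2, Ccne2, Ccnd1, Ccnd2, Aurkb, Mcm4, Kif20a, Tpx2, Foxm1 and Stmn1. The CHR letters were in 17 of the 32 (53.1%), against 17.6% of all 17632 promoters. All 17 also held a CCAAT box, a combination found in 53.1% of members against 7.28% of all promoters. Among mitosis members the CHR was in 12 of 16, against 3 of 11 replication members. The CCAAT box was in 14 of 16 mitosis members and 9 of 11 replication members (81.8%), against 38.5% of all promoters, so both groups held it about as often. The E2F letters stood in 5 of 11 replication members (45.5%) against 2.78% of all promoters, and Cdk1 was the only mitosis member to hold them. The p53 element was in Cdkn1a alone among the members and in 11 of the 17632 promoters (0.0624%). It was chosen after the Cdkn1a sequence had been read, so its match there was fixed in advance. None of the other 3 motifs was in the windows of the G1 members Ccne1, E2f1 and Cdkn1a. The same held for the replication member Tyms and the mitosis members Birc5 and Nusap1. The RefSeq start used lay 466 bases from the deposited gene start in E2f1, 539 in Mcm7 and 350 in Cdc6. Sites near the deposited start could thus lie outside these windows, and no absence of sites is read for E2f1. These are matches of letters and not shown to be bound.

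**Figure D1:**
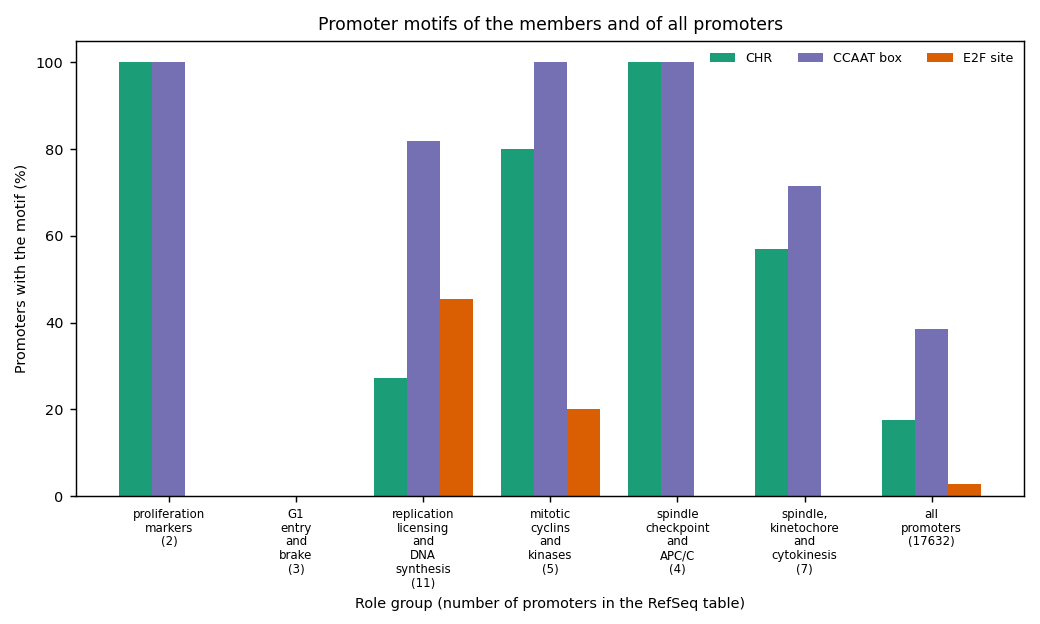
Share of promoters (%, vertical axis) that held each of 3 motifs within 300 bases, by role group and for all 17632 promoters, with the number of promoters under each group. The CHR stood in 4 of 4 checkpoint and APC/C promoters and in none of the 3 of G1 entry and brake, and the E2F site was most frequent in the replication group (45.5%).

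Hnf4a transcript did not follow the knockout label, so the groups are those of the labels. It stood at 108, 98.8 and 138 FPKM in KO HFD and at 133, 116 and 120 FPKM in WT HFD, with means of 114.8 ± 20.51 and 123 ± 8.946 FPKM (SD, n = 3 each, exact two-sided permutation p = 0.6). On chow it was 158, 132 and 130 FPKM in KO and 126, 75.8 and 0.0973 FPKM in WT (p = 0.1 in the exact permutation test, two-sided, where 3 libraries a group can reach no smaller p). The sources used here do not say whether the deleted part of the gene is counted.

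The libraries labelled KO HFD 1, WT chow 2 and WT chow 3 stood apart from the rest, with a median correlation to the other libraries of 0.948, 0.806 and 0.576, against 0.971 to 0.979 in the other 9. The summed level of 7 hepatocyte markers was 32824 to 47302 FPKM in KO HFD, 40315 to 40743 in KO chow and 52326 to 61597 in WT HFD. In WT chow it was 47793, 23147 and 17.6 FPKM. Of 6 fat markers, Ucp1 and Cidea mark brown fat, and Fabp4, Adipoq, Plin1 and Lep mark fat cells more widely. The 6 summed to 12924 FPKM in WT chow 3 and to 120 in WT chow 2, against 5.64 to 55.9 in the other 10 libraries. In WT chow 3 Fabp4 stood at 8367 FPKM, Ucp1 at 2339 FPKM and Cidea at 1445 FPKM. The sum in WT chow 2 came from Fabp4 (78.6 FPKM) and Cidea (41.7 FPKM). Ucp1, Adipoq and Lep were at 0 there and Plin1 at 0.194 FPKM. Reads on mitochondrial genes made up 37.5% in WT chow 3 and 3.39% in WT chow 2, against 5.14 to 6.26% in the other 10 libraries. WT chow 3 thus lacked the marker profile of the liver that its label names, and it was kept in the fit of 12 libraries. Results are therefore given with all 12 libraries, with 10 (without WT chow 2 and 3) and with 9 (also without KO HFD 1). Fewer cells of a type and less RNA per cell cannot be told apart in bulk samples.

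Most members were low in these samples. The median over the 12 libraries was under 1 FPKM for 29 of 42 members, and 6 members did not reach 1 FPKM in any library. A gene was tested if its mean over the 12 libraries was at least 0.5 FPKM, which 32 members met. Mki67 lay just inside at 0.504 FPKM and Ccne2 just outside at 0.475. The other 9 members not tested were Cenpf, Cdc6, Bub1, Cenpe, Kif23, Foxm1, Kif11, Bub1b and Kif20a. For 9 of the 32 tested members the mean fell under 0.5 FPKM when WT chow 2 and 3 were left out, so that these passed through those libraries. They were Mki67, Top2a, Ccna2, Ccnb1, Aurkb, Plk1, Nusap1, Tpx2 and Prc1. Their lower values in comparisons against WT chow follow in part from this filter, and no result is drawn from their tests there.

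The mitosis members were high in a pair of libraries from opposite corners of the design, KO HFD 1 and WT chow 2. These were the highest 2 of the 12 libraries for 24 of the 24 mitosis and proliferation members, including the 8 mitosis members too low to test, and for 28 of all 42 members (66.7%). Among all 12251 genes tested the share was 18.7%. WT chow 2 exceeded KO HFD 1 in 21 of 21 mitosis members, by a ratio of 1.66 to 4.55 with a median of 2.35. Of the 21 mitosis members, 17 stayed under 1 FPKM in each of the other 10 libraries. These counts describe libraries that were picked after their values had been seen.

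**Figure D2:**
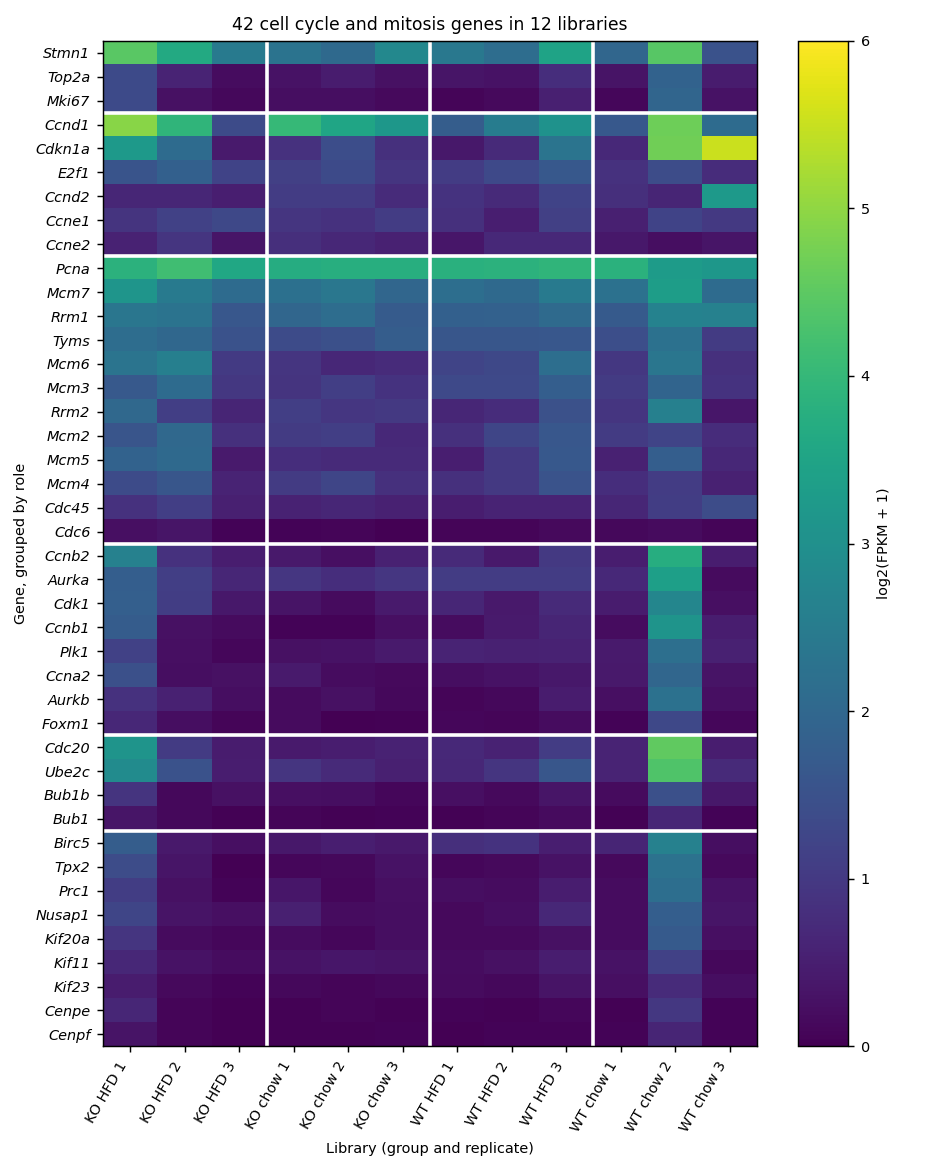
Level of each member (log2 of FPKM + 1, colour) in each of the 12 libraries, with members grouped by role in rows and white lines between groups. The columns KO HFD 1 and WT chow 2 are the brightest for the lower 3 row groups, the 21 mitosis members.

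Summed over the 21 mitosis members, the level was 41.5, 9.01 and 3.63 FPKM in KO HFD 1 to 3 and 5.46, 4.14 and 5.02 FPKM in KO chow. It was 6.24, 6.29 and 10.7 FPKM in WT HFD and 5.23, 111 and 4.76 FPKM in WT chow. KO HFD and WT chow thus each held the library that was highest within its diet, and the groups overlapped in each comparison. KO chow and WT HFD held none above 10.7 FPKM.

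Markers of blood and immune cells were read beside this sum. The 8 lymphocyte and plasma cell markers summed to 8.20 FPKM in KO HFD 1 and 12.9 FPKM in WT chow 2, against 5.61 to 13.7 in the other 10 libraries. None of the 8 was at 0 in either library, and they did not move together. In WT chow 2 the B cell receptor genes Cd79a and Cd79b were at their highest of the 12 libraries (3.50 and 5.19 FPKM) and Cd3e, of the T cell receptor, and Igj, of antibody-secreting cells, at their lowest (0.111 and 1.26 FPKM). The 7 neutrophil and granulocyte precursor markers summed to 20.6 and 24.3 FPKM in those libraries and to 51.2 FPKM in WT HFD 3. Of the 7, only the early granulocyte gene Mpo was at 0 in KO HFD 1, and none was at 0 in WT chow 2, where the granule genes Ngp (0.785 FPKM) and Camp (1.59 FPKM) were second only to WT HFD 3. The 7 erythroid markers summed to 1149 FPKM in KO HFD 1, 2567 FPKM in WT chow 2 and 3441 FPKM in WT HFD 3, against 300 to 1646 in the other 9. They did not move together either. Most of the sum in WT chow 2 came from the globin genes Hbb-bs (1197 FPKM) and Hba-a1 (1079.5 FPKM). Alas2 (7.89 FPKM) and Klf1 (0.796 FPKM) were lower in WT chow 2 than in every library except WT chow 3. The 7 Kupffer cell and macrophage markers summed to 59.5 FPKM in KO HFD 1 and 84.1 FPKM in WT chow 2, within the 9.25 to 157 of the other 10. The part of these cells in the mitosis values was not tested.

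Among the proliferation markers, Mki67 encodes the Ki-67 antigen that coats mitotic chromosomes. Mki67 had 1.54, 0.207 and 0.101 FPKM in KO HFD, 0.166, 0.161 and 0.114 FPKM in KO chow, 0.0571, 0.108 and 0.435 FPKM in WT HFD, and 0.0701, 2.85 and 0.229 FPKM in WT chow. These values rest on 282 reads in KO HFD 1 and 542 reads in WT chow 2, against 11 to 77 reads in the other 10 libraries. Top2a had 1.53, 0.510 and 0.141 FPKM in KO HFD, 0.225, 0.368 and 0.207 FPKM in KO chow, 0.270, 0.230 and 0.719 FPKM in WT HFD, and 0.250, 2.68 and 0.383 FPKM in WT chow. For both genes the 4 groups overlapped.

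Stmn1 encodes stathmin, which destabilises microtubules. It was the most abundant of the 3 markers, with 21.1, 11.4 and 4.60 FPKM in KO HFD, 3.86, 3.16 and 6.01 FPKM in KO chow, 4.29, 3.40 and 10.1 FPKM in WT HFD, and 2.97, 20.6 and 1.83 FPKM in WT chow. Unlike the other 2 markers it was marginally higher in KO HFD 1 than in WT chow 2. Its log2 difference in KO HFD against KO chow was 1.15 ± 0.730 (SE), with adjusted p = 0.692 in limma.

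Of the mitotic cyclins and kinases, Cdk1 encodes the kinase that drives entry into mitosis and Ccnb2 one of its cyclin partners. Cdk1 had 2.52, 1.14 and 0.314 FPKM in KO HFD, 0.236, 0.136 and 0.353 FPKM in KO chow, 0.562, 0.337 and 0.650 FPKM in WT HFD, and 0.377, 5.76 and 0.189 FPKM in WT chow. Ccnb2 had 5.23, 0.812 and 0.404 FPKM in KO HFD, 0.321, 0.192 and 0.455 FPKM in KO chow, 0.645, 0.334 and 0.996 FPKM in WT HFD, and 0.388, 12.4 and 0.393 FPKM in WT chow. In each gene 1 library of KO HFD and 1 of WT chow carried the group mean.

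Aurka, a kinase of the spindle poles, had 2.46, 1.18 and 0.565 FPKM in KO HFD and 0.943, 0.724 and 0.936 FPKM in KO chow. Its values were 1.10, 1.11 and 1.10 FPKM in WT HFD and 0.628, 9.39 and 0.127 FPKM in WT chow. Ccnb1, the main mitotic cyclin, had 2.37, 0.210 and 0.137 FPKM in KO HFD, 0.0498, 0.0396 and 0.179 FPKM in KO chow, 0.147, 0.345 and 0.548 FPKM in WT HFD, and 0.153, 7.55 and 0.390 FPKM in WT chow. Plk1, a kinase of mitotic entry, had 1.25, 0.189 and 0.0771 FPKM in KO HFD, 0.197, 0.223 and 0.347 FPKM in KO chow, 0.522, 0.467 and 0.490 FPKM in WT HFD, and 0.345, 3.57 and 0.468 FPKM in WT chow. Aurkb, the kinase of the chromosomal passenger complex, had 0.820, 0.455 and 0.174 FPKM in KO HFD, 0.127, 0.202 and 0.0980 FPKM in KO chow, 0.0536, 0.0880 and 0.379 FPKM in WT HFD, and 0.195, 3.73 and 0.187 FPKM in WT chow. Each of these genes repeated the pair of high libraries, and Plk1 differed from the others in that KO HFD 3 was its lowest library. The last members of the group were Ccna2 and Foxm1. Foxm1 stood at 0.589 FPKM in KO HFD 1 and 1.47 FPKM in WT chow 2, and Ccna2 at 1.77 and 2.94 FPKM. FOXM1 is the factor that binds many of these genes' promoters in G2.

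The spindle checkpoint and APC/C genes held the highest mitosis values. Cdc20 had 7.66, 1.08 and 0.379 FPKM in KO HFD, 0.345, 0.384 and 0.497 FPKM in KO chow, 0.612, 0.478 and 1.08 FPKM in WT HFD, and 0.515, 22.2 and 0.406 FPKM in WT chow. Its reads numbered 249 in KO HFD 1 and 750 in WT chow 2, against 10 to 37 in the other 10 libraries. Ube2c had 6.39, 1.83 and 0.388 FPKM in KO HFD, 0.904, 0.629 and 0.436 FPKM in KO chow, 0.597, 0.914 and 2.05 FPKM in WT HFD, and 0.521, 19.3 and 0.636 FPKM in WT chow. Bub1 and Bub1b, kinases that hold back anaphase until chromosomes are attached, were at 0.274 and 0.857 FPKM in KO HFD 1 and at 0.558 and 1.75 FPKM in WT chow 2.

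Among the spindle, kinetochore and cytokinesis genes, Birc5 encodes survivin, a subunit of the chromosomal passenger complex. Birc5 had 2.43, 0.329 and 0.187 FPKM in KO HFD, 0.316, 0.413 and 0.325 FPKM in KO chow, 0.753, 0.841 and 0.409 FPKM in WT HFD, and 0.538, 5.27 and 0.164 FPKM in WT chow. Tpx2, which nucleates spindle microtubules, had 1.63, 0.263 and 0.0130 FPKM in KO HFD, 0.0709, 0.102 and 0.233 FPKM in KO chow, 0.0719, 0.105 and 0.221 FPKM in WT HFD, and 0.112, 3.83 and 0.111 FPKM in WT chow. In Tpx2 every library other than KO HFD 1 and WT chow 2 was under 0.3 FPKM. Prc1, Nusap1, Kif20a, Kif11, Kif23, Cenpe and Cenpf, which bundle microtubules, move along them or link them to kinetochores, ran from 0.243 (Cenpf) to 1.39 FPKM (Nusap1) in KO HFD 1 and from 0.534 (Cenpf) to 3.48 FPKM (Prc1) in WT chow 2. Cenpe had no read in KO HFD 3.

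**Figure D3:**
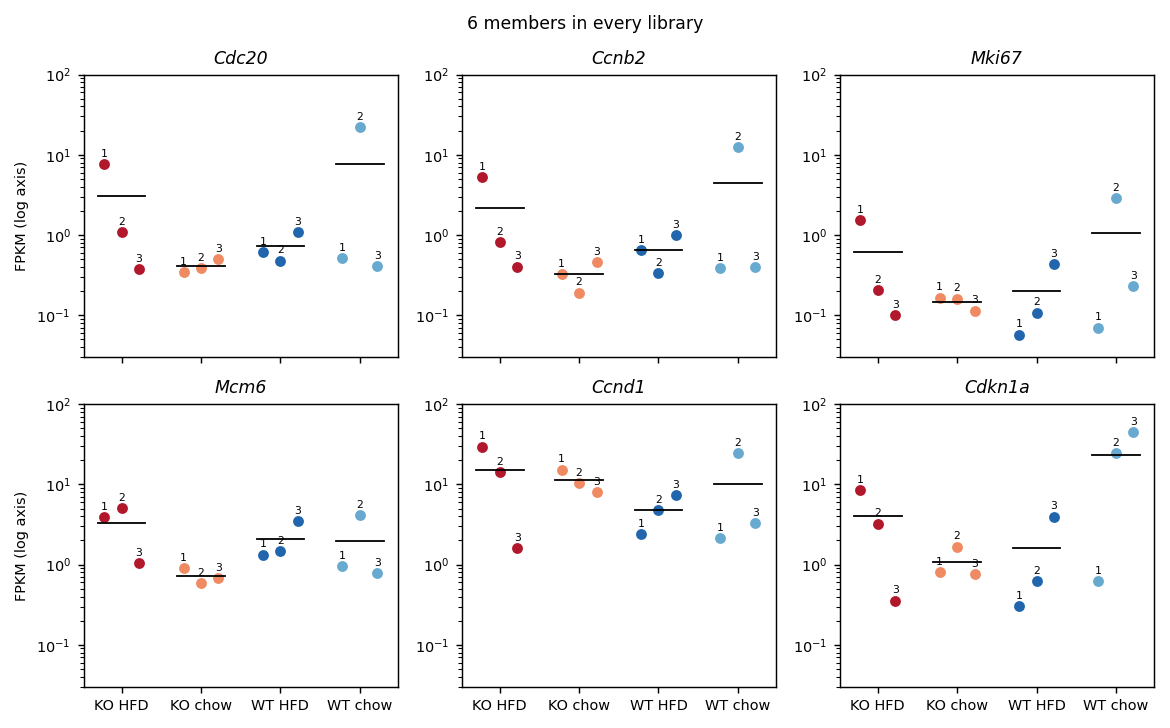
Level of 6 members in every library (FPKM, log axis), with points numbered by replicate and a bar at each group mean. Cdc20, Ccnb2 and Mki67 stand high in KO HFD 1 and WT chow 2 alone, Mcm6 is also high in KO HFD 2 and WT HFD 3, and Cdkn1a is highest in WT chow 3 (44.8 FPKM).

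The replication genes shared the high libraries in part. KO HFD 1 and WT chow 2 were the highest 2 libraries for 3 of the 12, Mcm7, Rrm2 and Tyms. In the 6 genes of the MCM helicase, Mcm2 to Mcm7, the summed level was 20.1, 21.1 and 6.93 FPKM in KO HFD, 8.22, 9.11 and 6.45 FPKM in KO chow, 8.36, 9.48 and 16.6 FPKM in WT HFD, and 7.95, 20.99 and 6.61 FPKM in WT chow. The MCM sum was thus level in KO HFD 1, KO HFD 2 and WT chow 2, whereas the mitosis sum was 41.5, 9.01 and 111 FPKM in them. Single MCM genes were not level, since Mcm7 was lower and Mcm2 higher in KO HFD 2 than in the other 2, with values given below. Of the 10 libraries without WT chow 2 and 3, KO HFD 1, KO HFD 2 and WT HFD 3 were the highest 3 in 6 of 6 MCM genes, 9 of 12 replication members, 3 of 3 proliferation markers and 8 of 21 mitosis members, against 4.16% of all genes tested. This trait was therefore not particular to the replication genes. KO HFD 2 was the highest of the 10 in 5 of 6 MCM genes and in 0 of 21 mitosis members (5.09% of all genes), whereas KO HFD 1 was the highest in 21 of 21 mitosis members (31.4% of all genes).

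Mcm6 had the smallest unadjusted p of any member in the diet comparisons, 0.0298 in KO HFD against KO chow by limma over all 12 libraries. Mcm6 had 3.94, 5.04 and 1.04 FPKM in KO HFD, 0.896, 0.588 and 0.673 FPKM in KO chow, 1.33, 1.46 and 3.46 FPKM in WT HFD, and 0.948, 4.11 and 0.780 FPKM in WT chow. All 3 KO HFD libraries lay above all 3 KO chow libraries, KO HFD 3 by a small margin. Mcm3 had 2.22, 3.27 and 0.958 FPKM in KO HFD, against 0.866, 1.15 and 0.835 FPKM in KO chow, and Mcm2 had 1.98, 3.08 and 0.790 FPKM in KO HFD, against 1.05, 1.17 and 0.605 FPKM in KO chow. In both genes KO HFD 3 fell among the KO chow libraries. Mcm3 had 1.52, 1.52 and 2.49 FPKM in WT HFD, against 1.05, 2.82 and 0.830 FPKM in WT chow. Mcm2 had 0.791, 1.37 and 2.11 FPKM in WT HFD, against 1.06, 1.34 and 0.684 FPKM in WT chow.

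Pcna encodes the sliding clamp of DNA polymerase and is also used in DNA repair. It was the highest replication member, with 13.6, 17.0 and 10.97 FPKM in KO HFD, 12.1, 12.5 and 12.6 FPKM in KO chow, 12.9, 13.5 and 14.2 FPKM in WT HFD, and 13.3, 8.81 and 7.99 FPKM in WT chow. WT chow 2 was the library with the most mitosis RNA and the second lowest in Pcna. Mcm7 had 7.71, 4.49 and 3.29 FPKM in KO HFD, 3.64, 4.17 and 2.92 FPKM in KO chow, 3.53, 3.13 and 4.47 FPKM in WT HFD, and 3.71, 9.17 and 3.25 FPKM in WT chow.

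Of the nucleotide-supply genes, Rrm2 encodes the cycle-regulated subunit of ribonucleotide reductase and Tyms thymidylate synthase. Both were highest in the same pair of libraries as the mitosis genes, Rrm2 at 3.07 FPKM in KO HFD 1 and 5.13 FPKM in WT chow 2, and Tyms at 3.45 FPKM in KO HFD 1 and 3.74 FPKM in WT chow 2. Tyms was nearly as high in KO HFD 2 (3.02 FPKM). Rrm1, the partner subunit of Rrm2, stood at 4.11 FPKM in KO HFD 1, 5.34 FPKM in WT chow 2 and 5.22 FPKM in WT chow 3. Cdc45, which joins the MCM ring to form the active helicase, had 0.824, 1.17 and 0.449 FPKM in KO HFD, 0.491, 0.574 and 0.475 FPKM in KO chow, 0.390, 0.507 and 0.504 FPKM in WT HFD, and 0.558, 1.14 and 1.61 FPKM in WT chow. All 3 WT HFD libraries were below all 3 WT chow libraries. Cdc6, an origin-licensing factor, was at most 0.272 FPKM, in KO HFD 2.

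**Figure D4:**
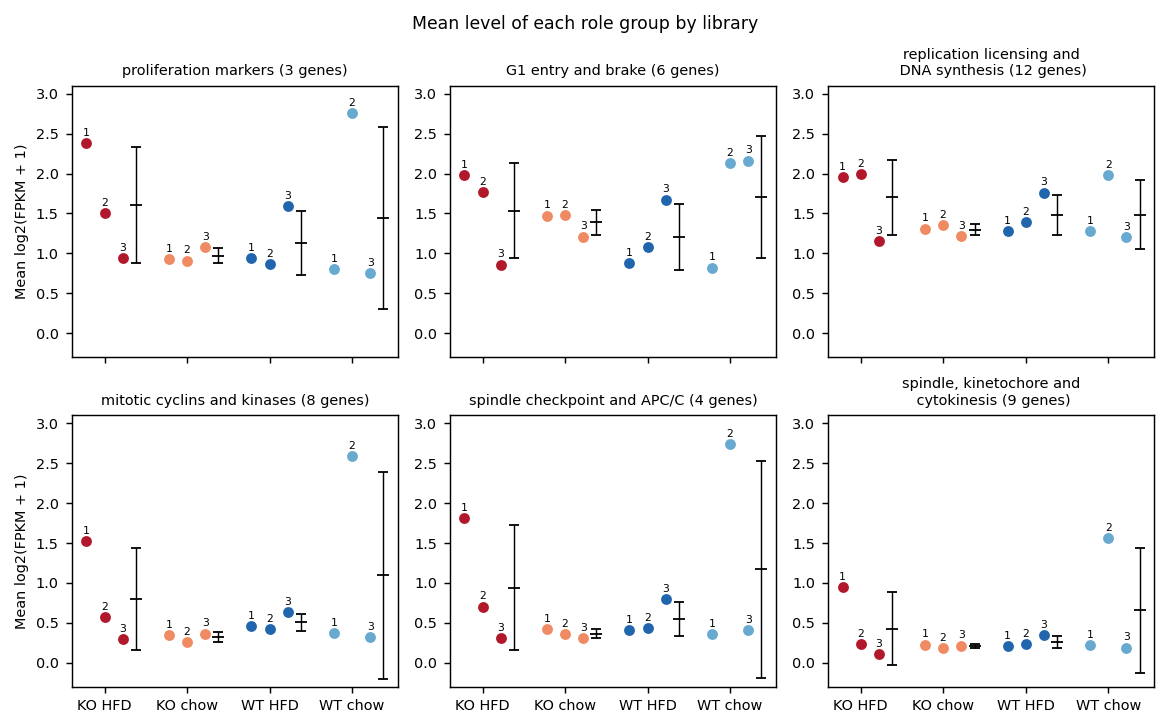
Mean of log2(FPKM + 1) over the genes of each role group (vertical axis) in each library, with points numbered by replicate and the group mean ± SD in black (n = 3). KO HFD 1 and WT chow 2 stand apart in the 3 mitosis groups, whereas in the replication group KO HFD 2 is level with them at 1.99.

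The G1 genes did not move as 1 set. Ccnd1 encodes cyclin D1, the cyclin through which growth signals bring hepatocytes into the cycle. Ccnd1 had 29.6, 14.2 and 1.59 FPKM in KO HFD, 15.3, 10.5 and 7.97 FPKM in KO chow, 2.40, 4.74 and 7.33 FPKM in WT HFD, and 2.15, 24.5 and 3.31 FPKM in WT chow. KO HFD 3 had the lowest and KO HFD 1 the highest value of all 12, so KO HFD spanned the full range. The KO chow libraries lay above WT chow 1 and 3 and below WT chow 2, with a log2 difference of 0.76 ± 0.923 (SE, adjusted p = 0.628) in limma. With 10 libraries it was 1.91 ± 1.08 against the lone WT chow 1 (adjusted p = 1).

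Cdkn1a had 8.43, 3.25 and 0.356 FPKM in KO HFD, 0.811, 1.68 and 0.767 FPKM in KO chow, 0.301, 0.629 and 3.96 FPKM in WT HFD, and 0.626, 24.8 and 44.8 FPKM in WT chow. The brake was therefore high in the libraries with high mitosis genes, and highest in WT chow 3, whose mitosis sum was 4.76 FPKM. Of the 10 p53 response genes on a separate list, 4 were highest in WT chow 3, as were 21.8% of all genes tested. There Phlda3 stood at 235.9 and Ccng1 at 38.01 FPKM, against 0.801 to 6.66 and 7.26 to 11.2 FPKM in the other 11. In WT chow 3 Bax (12.8 FPKM), Btg2 (1.61 FPKM) and Trp53 (3.52 FPKM) were at their lowest of the 12 libraries. The same held for 32.7% of all genes tested. Bax was highest in WT chow 2, at 95.2 FPKM. These genes were named after their values were seen. Fat markers, with Ucp1 and Cidea of brown fat, were also high in WT chow 3, as given above. Their part in the Cdkn1a value was not tested.

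Ccnd2 encodes cyclin D2. It had 0.551, 0.567 and 0.407 FPKM in KO HFD, 1.11, 1.08 and 0.659 FPKM in KO chow, 0.834, 0.632 and 1.31 FPKM in WT HFD, and 0.744, 0.531 and 8.44 FPKM in WT chow. All 3 KO HFD libraries lay below all KO chow and all WT HFD libraries. E2f1, an activator of S-phase genes, had 1.94, 2.58 and 1.30 FPKM in KO HFD, 1.19, 1.55 and 0.901 FPKM in KO chow, 1.08, 1.49 and 2.15 FPKM in WT HFD, and 0.809, 1.64 and 0.704 FPKM in WT chow. Ccne1, which encodes cyclin E1, had 0.883, 1.25 and 1.47 FPKM in KO HFD, 0.898, 0.812 and 1.08 FPKM in KO chow, 0.784, 0.429 and 1.19 FPKM in WT HFD, and 0.435, 1.33 and 1.0003 FPKM in WT chow. Ccne2 ran from 0.159 FPKM in WT chow 2 to 0.885 FPKM in KO HFD 2. The E cyclins, which start DNA synthesis with their kinase, did not share the mitosis pattern, and Ccne2 was lowest in the library where the mitosis genes were highest.

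The effect of the knockout label on the high fat diet was read from limma, a linear model of log2(FPKM + 1) with 4 group means fitted to 12251 genes, with p adjusted by Benjamini-Hochberg and called under 0.05. Differences on this scale understate the change of low genes. No member passed, with 19 genes called in all (0.155%), no member at an unadjusted p under 0.05 (1.27% of genes) and no member called by limma-voom on recovered reads. Over all 42 members, tested or not, the mean was higher in KO HFD for 40 and lower for 2, with a median difference of 0.236, against -0.00373 over the 22909 genes above 0 in any library. Without KO HFD 1 and the WT chow pair (9 libraries) 21 were higher and 21 lower, and the median was -0.0052. Ccnd2 was the only member whose groups did not overlap, lower in KO HFD (12.4% of all genes, and 7.37% higher).

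In that comparison the smallest p belonged to Ccne1, with 0.30 ± 0.225 (SE), and to Cdc45, with 0.29 ± 0.214 (adjusted p = 1 for both). Ccnd1 differed by 0.96, with a 95% confidence interval of -1.08 to 3.0, and Cdc20 by 0.77, with an interval of -1.36 to 2.91. Both intervals spanned 0. Ccnd1 differed by 0.20 without KO HFD 1 and by 1.98 without KO HFD 3, and Cdc20 and Ube2c by -0.0857 to -0.0106 with 9 libraries.

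On chow, 0 members and 0 genes passed limma's threshold for the knockout label (0%), with 2584 genes (21.1%) and 1 member, Cdkn1a, at an unadjusted p under 0.05 and 0 genes called by limma-voom. Over all 42 members the mean was higher in KO chow for 6 and lower for 36, with a median difference of -0.426, against -0.000716 over the 22909 genes. Without WT chow 2 and 3 (10 libraries, with WT chow 1 alone in its group and taken to vary like the others) 24 were higher and 18 lower, with a median of 0.0206. Cdkn1a differed by -2.60 ± 1.12 (SE, adjusted p = 0.224) and Cdc45 by -0.44 ± 0.214 (adjusted p = 0.257) in limma. Plk1 differed by -0.73 and Ccnb1 by -1.14. Both passed the filter only through WT chow 2 and 3, so their tests are not read here. Cdkn1a was 0.33 on the same scale with 10 libraries. Without WT chow 2 alone Plk1 differed by -0.16 and Ccnb1 by -0.22. Ccne2 was higher in all KO chow libraries (12.4% of genes tested) and Kif23 lower (4.43%), and both had been too low to test.

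The library labelled WT chow 1 decided 2 calls. Without it, limma called Cdkn1a at -4.07 ± 0.768 (SE, adjusted p = 0.00463) and Cdc45 at -0.64 ± 0.200 (adjusted p = 0.0423) for KO chow against WT chow, and 2981 genes in all. What then remained of WT chow were the libraries WT chow 2 and 3, which stood apart from each other and from the rest.

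The effect of diet under the knockout label gave no member past the threshold, against 19 genes called (0.155%), all higher in KO HFD. At an unadjusted p under 0.05 stood 1 member, Mcm6, and 7.54% of genes. Of all 42 members 39 were higher and 3 lower in KO HFD, with a median difference of 0.286, against -0.00269 over the 22909 genes. Mcm6 had the smallest p, with 1.20 ± 0.478 (SE), a 95% confidence interval of 0.142 to 2.26 and adjusted p = 0.649 in limma. Mcm3 differed by 0.62 ± 0.330 and Mcm2 by 0.54 ± 0.308, and E2f1 by 0.39 ± 0.245 (adjusted p of 0.651 to 0.691). Without KO HFD 2 these 3 were 0.37, 0.26 and 0.24, and Mcm6 was 0.89. With 10 libraries limma called 951 genes (7.76%), and Mcm6 reached adjusted p = 0.0818 at the same difference, Cdk1 0.115 and Mcm3 0.156. With 9 libraries Mcm6 was at 1.03 ± 0.439 (adjusted p = 0.167), and 26 of the 42 members were higher and 16 lower, with a median of 0.0525. The groups of Mcm6 did not overlap (higher in KO HFD, 9.98% of genes tested), nor did those of Ccnd2 (lower, 21.6%).

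The effect of diet in wild type gave 0 members and 0 genes past limma's threshold (0%), with 1807 genes (14.7%) and 2 members, Cdc45 and Cdkn1a, at an unadjusted p under 0.05 and 0 genes called by limma-voom. Of all 42 members 10 were higher and 32 lower in WT HFD, with a median of -0.355, against -0.00533 over the 22909 genes. With 10 libraries 34 were higher and 8 lower, with a median of 0.142. Cdc45 differed by -0.49 ± 0.214 (SE, adjusted p = 0.330) and was the only member whose groups did not overlap (4.35% of genes tested, and 6.82% higher). Cdkn1a differed by -2.50 ± 1.12 (adjusted p = 0.336) and was 0.43 with 10 libraries, and Pcna differed by 0.43 ± 0.221 (adjusted p = 0.380). Aurkb differed by -0.69, but it passed the filter only through WT chow 2 and 3, so its test is not read here. Aurkb differed by -0.032 without WT chow 2. Without WT chow 1 limma called Cdkn1a at -3.97 (adjusted p = 0.00611) and Cdc45 at -0.69 (adjusted p = 0.0372), and 2435 genes in all.

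**Figure D5:**
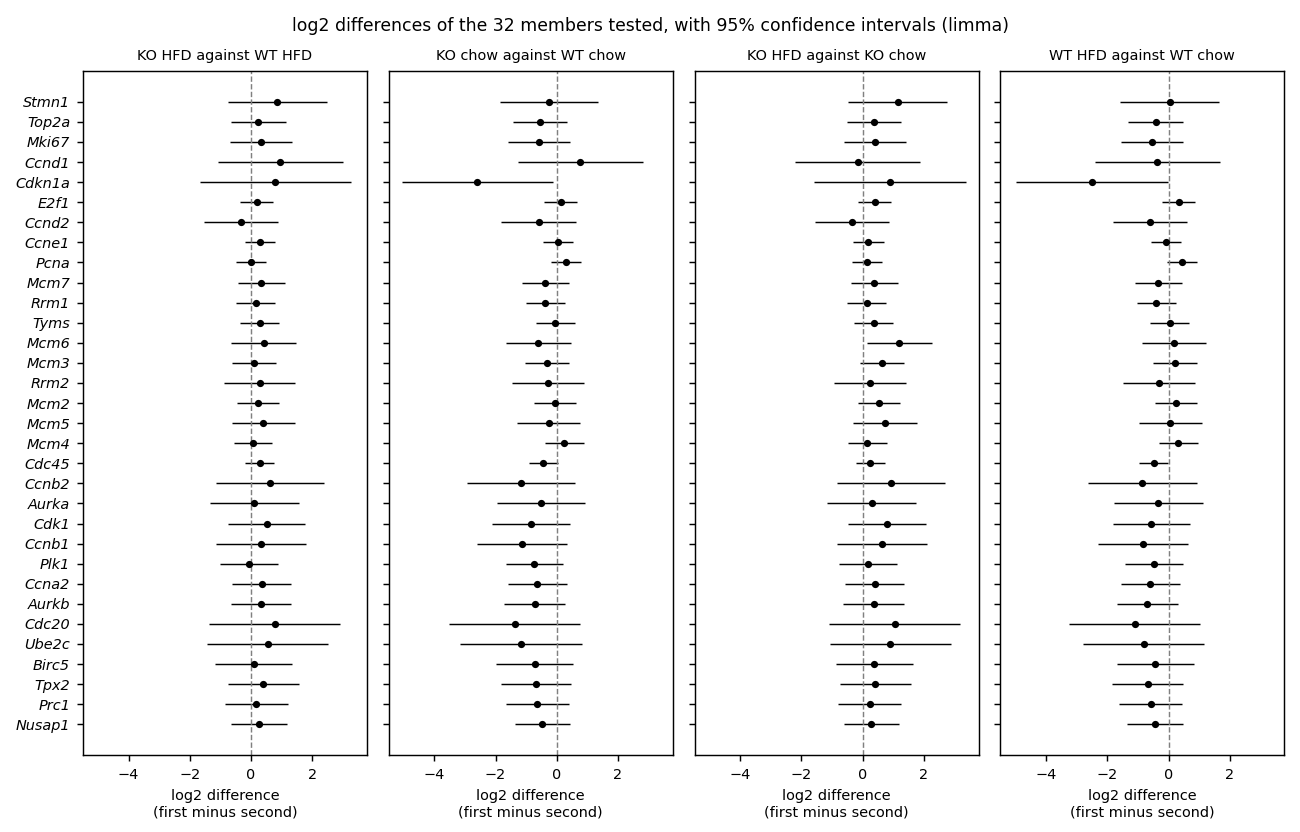
log2 differences of the 32 tested members (points) with 95% confidence intervals (bars) from limma in 4 comparisons, each as the first group minus the second. The intervals cross the dashed line at 0, except those of Cdkn1a in both comparisons with WT chow, of Cdc45 in WT HFD against WT chow and of Mcm6 in KO HFD against KO chow, and no member passed after adjustment.

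Whether the knockout label acted differently on the 2 diets was read as the difference of its effects, high fat diet minus chow. Limma called 15 genes (0.122%) and no member, with 1 member, Cdc45, at an unadjusted p under 0.05 (16.6% of genes). Cdc45 had 0.73 ± 0.303 (SE, adjusted p = 0.293) and Cdkn1a 3.39 ± 1.58 (adjusted p = 0.303). Cdk1 had 1.35 ± 0.810 (adjusted p = 0.379), and Aurkb, which passed the filter only through WT chow 2 and 3, had 1.05. Without WT chow 2 they were 0.55 and 0.39. The median over all 42 members was 0.666, against -4.94e-05 over the 22909 genes. It was 0.184 with 10 libraries and -0.0345 with 9. Without WT chow 1 limma called Cdkn1a at 4.86 (adjusted p = 0.0109) and Cdc45 at 0.93 (adjusted p = 0.0391).

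The mean of log2(FPKM + 1) over all 42 members gives the same picture by library. It was 1.68, 1.15 and 0.629 in KO HFD, 0.806, 0.785 and 0.744 in KO chow, 0.730, 0.786 and 1.13 in WT HFD, and 0.692, 2.16 and 0.848 in WT chow. KO HFD and WT chow spread widely, with SDs of 0.524 and 0.805, whereas KO chow and WT HFD had SDs of 0.0316 and 0.215. KO HFD minus WT HFD was 0.272, which fell to 0.0105 without KO HFD 1, and KO chow minus WT chow was -0.454, which became 0.00845 without WT chow 2. KO HFD minus KO chow was 0.375 (0.113 without KO HFD 1), and WT HFD minus WT chow was -0.351 (0.111 without WT chow 2). KO HFD 3 was the lowest library for 13 of the 42 members (13.1% of all genes tested) and for 8 of the 21 mitosis members.

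Other genes of the same pathways, held on 4 separate lists, gave no call in any of the 5 comparisons in limma. Of 32 other mitosis genes 15 were tested, of 22 other replication genes 15, of 19 other G1 genes 17 and of the 10 p53 response genes all 10. WT chow 2 was the highest library for 25 of the 32 other mitosis genes, 7 of the 22 other replication genes and 5 of the 19 other G1 genes (26.2% of all genes tested). In KO HFD against KO chow the median difference of the genes tested was 0.402 for the other mitosis genes, 0.213 for the other replication genes, -0.0529 for the other G1 genes and 0.072 for the p53 response genes. For the other mitosis genes it was -0.561 in KO chow against WT chow and -0.467 in WT HFD against WT chow, and 0.0397 and 0.116 with 10 libraries. The filter used the mean over all 12 libraries, so genes high in WT chow 2 or KO HFD 1 passed it more readily. These medians therefore rest in part on which genes passed, and the genes too low to test are not in them.

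Wee1 had the smallest p of these lists in 4 of the comparisons. It encodes the kinase that holds CDK1 inactive before mitosis. Wee1 had 2.39, 5.83 and 2.31 FPKM in KO HFD, 8.61, 4.84 and 4.07 FPKM in KO chow, 6.25, 7.10 and 7.50 FPKM in WT HFD, and 2.41, 0.219 and 1.03 FPKM in WT chow. All 3 WT chow libraries, WT chow 1 included, lay below all WT HFD and KO chow libraries, and WT chow 2, the highest in mitosis genes, was the lowest. Its limma difference was 1.96 ± 0.401 for WT HFD against WT chow (SE, adjusted p = 0.307), 1.69 for KO chow against WT chow (adjusted p = 0.195), -0.90 for KO HFD against WT HFD (adjusted p = 1) and -2.59 for the interaction (adjusted p = 0.289). With 10 libraries, so against WT chow 1 alone, it was 1.22 for WT HFD and 0.95 for KO chow (adjusted p = 1 for both in limma).

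The other genes described here had adjusted p-values from 0.195 to 1 in limma. Rfc4, a subunit of the clamp loader, differed by 0.59 ± 0.274 (SE) in KO HFD against WT HFD, with 4.96, 3.67 and 1.73 FPKM in KO HFD and 1.72, 1.92 and 1.78 FPKM in WT HFD. Mcm10, a replication initiation factor, differed by 2.80 in KO chow against WT chow. Mcm10 had 33.2, 25.1 and 33.4 FPKM in KO chow, against 24.99, 2.02 and 0.149 FPKM in WT chow. Cdkn2d, an inhibitor of the cyclin D kinases, differed by 0.58 and Cdkn1b, the inhibitor p27, by -0.66 in KO HFD against KO chow, and Cdkn2d by 0.99 in the interaction.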

How the data were processed

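The deposited table gives FPKM for 35275 genes, made by the authors, with gene length, coordinates and type. The submitters' processing notes name TopHat, STAR, CASAVA, DESeq2 (version 2) and HTSeq 0.6.1, and the builds GRCm38 and mm10, but no strand setting or filter. FPKM times gene length gave whole reads for 100% of values (tolerance 0.1). No column of values was left unmapped.

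Values were taken as log2(FPKM + 1), the pseudocount being 1. Genes with a mean of at least 0.5 FPKM entered 1 fit of 12 libraries in limma (version 3.58.1, R 4.3.3, moderated with a trend), adjusted over all 12251 genes. P-values set each group difference against the spread between libraries within groups, and that spread includes the libraries that stood apart. The members and lists were chosen with earlier results of these data known. Values in full were given for the 2 highest members of each role, the 4 with the smallest p per comparison and Mki67, Top2a, Cdk1, Ccnd1 and Cdkn1a. Ccnd2 was given in full after its values were seen. The single cell type markers and p53 response genes were also named after their values were seen. A gene of the other replication list that the rule also named is not reported here. Counts of libraries and medians over all 42 members were described after seeing the data. Alternatives changed the pseudocount, filter, scaling, libraries, replicate block and test (limma-voom). Promoters came from RefSeq on GRCm38.p6. The fit was tested on simulated data. Figures were drawn with matplotlib 3.10.9 (Python 3.11.15).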

Additional observations from a re-analysis of the deposited data

How the results depend on the processing

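No member passed limma's threshold under any alternative other than leaving out WT chow 1, where Cdkn1a and Cdc45 passed. Leaving out 1 library gave 16 to 20 genes for KO HFD against WT HFD, 0 to 2981 for KO chow against WT chow, 14 to 24 for KO HFD against KO chow, 0 to 2435 for WT HFD against WT chow and 5 to 2265 for the interaction. Members past the threshold then numbered 0 to 0, 0 to 2, 0 to 0, 0 to 2 and 0 to 2 in that order. The mean over the 42 members ranged from 0.0105 to 0.534, -0.724 to 0.00845, 0.113 to 0.637, -0.622 to 0.111 and 0.264 to 0.997.

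The count of 15 genes for the interaction became 6 with pseudocount 0.1, 25 with no filter, 1 with a mean of at least 2 FPKM, 4 with the replicate block, 24 with 9 libraries and 0 with limma-voom. KO HFD against KO chow went to 31 genes with no filter, 3 with a mean of at least 2, 951 with 10 libraries, 39 with 9 and 12 with limma-voom, and KO HFD against WT HFD to 3 with a mean of at least 2. KO chow against WT chow gave 4 genes with no filter, 1 with 10 libraries and 3 with 9, and WT HFD against WT chow 1 and 3. The member mean of the interaction was 1.24 with pseudocount 0.1, 0.186 with 10 libraries and -0.0761 with 9. Cdkn1a changed sign to 0.33 (KO chow against WT chow) and 0.43 (WT HFD against WT chow) with 10 and with 9 libraries, and to -0.20 (interaction) with 9. The cause was not tested.

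Replicate numbers did not pair the samples: deviations of 18 same-numbered pairs correlated from -0.504 to 0.131, with 2 above 0.1. Rescaling to TPM moved the median log2 difference of all genes to -0.13, 0.25, -0.23, 0.12 and -0.37, against -0.029, 0.075, -0.059, 0.015 and -0.099 as deposited. Depth limits the low members: Cdc20 rested on 10 to 37 reads outside KO HFD 1 and WT chow 2.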
